A study of Mus musculus with 14 samples.

Results

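The comparison set the brains of 5 vehicle-treated APP/PS1 mice against those of 4 vehicle-treated non-transgenic (NTG) littermates, with the question of which genes change in this amyloid model of Alzheimer's disease at an advanced age. These 9 mice, taken by genotype and treatment as labelled, are 9 of the 14 RNA-seq libraries of the series, and the mice that received the complex I inhibitor CP2 were not used. APP/PS1 mice are double transgenic for APP and PS1 carrying familial mutations, with the genotype given as APP/PS1 +/+, and the NTG controls are given as wild type and non-transgenic. The promoters that drive the transgenes are not given in the sources used here. All 9 mice were females of the strain C57BL/6;SJL-Tg, a mixed background. They drank water with 0.1% PEG, the vehicle, from 9 months of age and were killed at 23 months. Each library was made from a cross-sectional piece of brain that held hippocampus and cortex. The APP/PS1 mice keep their library numbers here, 16 to 20, as do the NTG mice, 7 to 10, and values per mouse follow that order.

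Amyloid plaques are ringed by microglia, the resident macrophages of the brain, which there take on a state with high expression of Trem2, Tyrobp, Apoe, cystatin F (Cst7) and lysosomal genes. Astrocytes near plaques become reactive and raise the intermediate filament genes Gfap and Vim. Interferon-stimulated genes, the antigen-presenting MHC genes and the complement cascade are further arms of the innate immune response known from amyloid models.

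Total counts lay between 70548781 and 106235625 per mouse, so that 3 counts, the limit that a count of 0 allows, stood for 0.0276 to 0.0447 CPM, the counts scaled to library size with TMM factors. Such limits cover counting error only. The share of counts on the ribosomal RNA-like genes Yam1 and AY036118 was 4.72 to 7.50% in NTG and 2.40 to 5.51% in APP/PS1 mice (difference of -1.83 percentage points, two-sided exact permutation test over all groupings of 4 against 5 mice, p = 0.0635). Mouse 16 stood apart from the other APP/PS1 mice in genes of the striatum, a region next to the tissue that was sampled. The mean log2 CPM of the 12 tested striatum markers was 3.46 above the NTG mean in mouse 16 and between -0.14 and 0.31 in mice 17 to 20. The dentate gyrus markers were lowest in mouse 16 as well, at -0.91 against -0.36 to -0.22. The counts over each group of gene lists are therefore given without mouse 16 as well, as are those of single lists that its removal moved by more than 1.5 times. In such bulk tissue more cells of a type and more RNA per cell cannot be told apart, which holds for every cell type marker below. Markers of neurons were present in all 9 mice, among them Thy1 (472 to 529.6 CPM in NTG and 454 to 505 CPM in APP/PS1 mice) and Neurod6 (62.6 to 84.9 CPM in NTG and 39.8 to 66.6 CPM in APP/PS1 mice).

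A gene was called when its adjusted p was under 0.05 in edgeR's quasi-likelihood test over all 16417 genes tested, and the words rose and fell are used of called genes alone. Of all genes tested 5.68% were called, as 4.34% rose and 1.34% fell in APP/PS1 mice (10.6% higher and 8.05% lower at an unadjusted p under 0.05), while the median log2 fold change over all genes was -0.0042. The rises were also the larger changes. More than 2-fold were 318 of the rises and 20 of the falls, and more than 4-fold were 54 rises and 0 falls. Rises were most frequent among weakly expressed genes. In the lowest quintile of genes by mean CPM 7.95% rose, with a median log2 fold change of 1.15, and in the highest quintile 1.71% rose, with a median of 0.499. Falls were about equally frequent at all levels (1.22 to 1.64% of each quintile). Genes were tested when above 1 CPM in every mouse of at least 1 group, so that weak genes could enter through their higher group alone. How far this filter shaped the shares and fold changes of the lowest quintile was not tested. Without mouse 16 the calls grew to 8.92%, with 6.62% rising and 2.3% falling. DESeq2 called 10.2% of the same genes, 6.69% higher and 3.47% lower. With the ribosomal share as a covariate 4.39% were called, as 3.93% rose and 0.451% fell, or 74 falls in place of 220, and its part in the falls was not tested further.

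**Figure D1:**
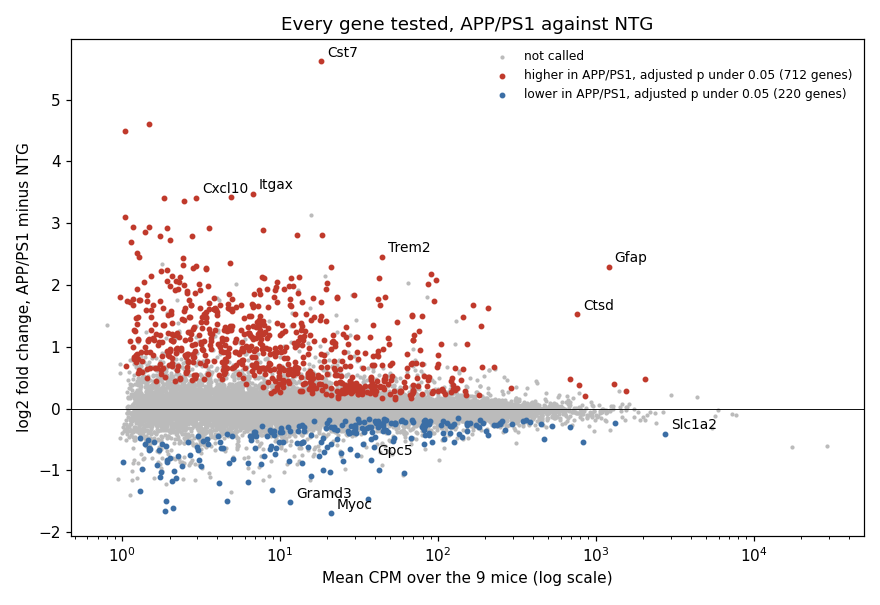
Each point is 1 of the 16417 genes tested, by its mean CPM over the 9 mice (log scale) and its log2 fold change, APP/PS1 minus NTG; called genes are red (712 higher) or blue (220 lower). Rises reach 5.62 for Cst7, whereas falls reach -1.70 for Myoc.

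Most genes with the largest rises are known from myeloid cells. Of the genes called, without overlap between groups and with a mean of at least 1 CPM, the 10 largest rises were those of Cst7, Gm8909, Gm9855, Itgax, Lilrb4, Hcar2, Cxcl10, Ccl3, Tnfsf8 and Gpr65. Cst7, which encodes cystatin F, an inhibitor of lysosomal cathepsins, had 0.897, 0.328, 0.552 and 0.799 CPM in NTG mice and 18.7, 34, 25.3, 39.2 and 44.6 CPM in APP/PS1 mice. It stood above 18 CPM in each APP/PS1 mouse and below 1 CPM in each NTG mouse. Itgax (ENSMUSG00000030789, chr7:128129547-128150656 of mm10), the integrin chain CD11c of myeloid cells, had 1.49, 0.656, 0.803 and 1.09 CPM in NTG mice and 7.03, 12, 8.21, 11.6 and 17.7 CPM in APP/PS1 mice (log2 fold change 3.47, standard error 0.33, adjusted p = 0.000316). Lilrb4 (ENSMUSG00000062593, chr10:51480640-51496613 of mm10), an inhibitory receptor of myeloid cells, had 1.32, 0.611, 0.351 and 0.757 CPM in NTG mice and 5.59, 6.72, 8.38, 12.9 and 7.59 CPM in APP/PS1 mice (log2 fold change 3.43, standard error 0.38, adjusted p = 0.000649). The ranges of both genes were wide apart, with the lowest APP/PS1 mouse, mouse 16, several times above the highest NTG mouse, mouse 7. Hcar2, the receptor for hydroxybutyrate and niacin, had 0.329, 0.358, 0.126 and 0.352 CPM in NTG mice and 1.6, 2.7, 3.95, 4.42 and 2.86 CPM in APP/PS1 mice (log2 fold change 3.41, standard error 0.37, adjusted p = 0.000614). Tnfsf8, the ligand of CD30, had 0.159, 0.119, 0.226 and 0.277 CPM in NTG mice and 1.01, 1.88, 1.94, 2.11 and 1.64 CPM in APP/PS1 mice (log2 fold change 3.104, standard error 0.29, adjusted p = 0.000294), and Gpr65, a proton-sensing receptor, had 0.488, 0.179, 0.339 and 0.234 CPM in NTG mice and 1.36, 2.51, 2.43, 3.4 and 2.39 CPM in APP/PS1 mice (log2 fold change 2.94, standard error 0.33, adjusted p = 0.000696). In all of these genes mouse 16 was the lowest APP/PS1 mouse. The gene models Gm8909 (0.193, 0.179, 0.0126 and 0.0426 CPM in NTG mice and 1.49, 2.61, 4.15, 2.78 and 1.81 CPM in APP/PS1 mice) and Gm9855 (0.102, 0.0596, 0.0753 and 0.0746 CPM in NTG mice and 1.41, 2.03, 1.47, 1.26 and 2.9 CPM in APP/PS1 mice) were near the limit of detection in NTG mice, where 3 counts stand for up to 0.0447 CPM. Their log2 fold changes were 4.61 and 4.500 (adjusted p = 0.000927 and 0.000119). Gm8909 lies in the gene-dense MHC region of chromosome 17, where similar genes can share reads, so that its count is uncertain.

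**Figure D2:**
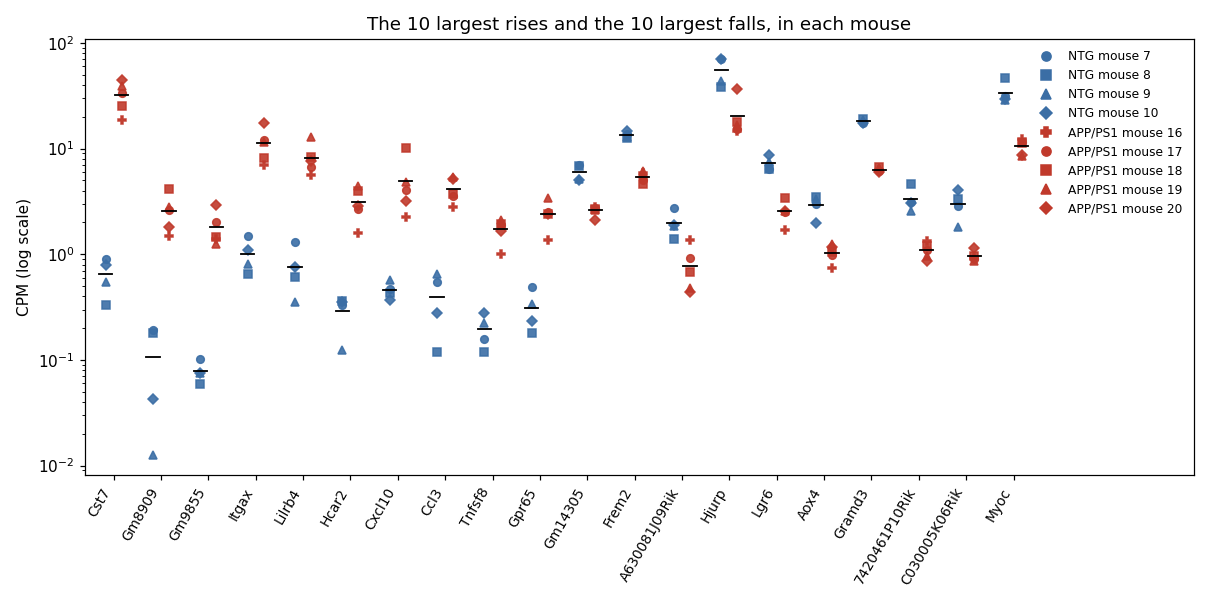
CPM (log scale) of the 10 genes with the largest rises (left) and the 10 with the largest falls (right) in each of the 4 NTG (blue) and 5 APP/PS1 mice (red), with the group means as black bars. The groups do not overlap in any of the 20 genes, as the rule for naming them required; APP/PS1 mouse 20 lies apart from its group for Hjurp.

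Most of the listed microglial and other innate immune genes rose. Of the 222 tested genes of 13 immune lists 141 rose (63.5%, against 4.34% of all genes) and 1 fell, and the 141 were 19.8% of the 712 rises. The lists, here and below, were chosen with earlier results of these data known, so that their shares are a description and no independent test. There were 181 higher (81.5%, against 10.6% of all genes) and 2 lower at an unadjusted p under 0.05. DESeq2 called 164 higher and 1 lower, the test without mouse 16 169 and 2, and that with the ribosomal share as a covariate 142 and 1. Of the plaque-associated microglia list 19 of 26 tested members rose (median log2 fold change 1.57). Trem2, the lipid-sensing receptor of microglia, had 15.7, 9.9, 14.1 and 10.8 CPM in NTG mice and 58.7, 69.6, 55.9, 87 and 76.9 CPM in APP/PS1 mice (log2 fold change 2.46, standard error 0.18, adjusted p = 0.000119). Its signalling partner Tyrobp had 17.3, 15.1, 13.6 and 13.2 CPM in NTG mice and 51.2, 59.4, 53.9, 81.9 and 74.6 CPM in APP/PS1 mice (log2 fold change 2.12, standard error 0.16, adjusted p = 0.000119). The receptor pair thus rose together, with no overlap between the groups, and both were highest in mouse 19. Of the list of general microglia and macrophage identity 13 of 15 members rose (median 1.49). Its first 4 genes by p were Cd68, a lysosomal membrane protein of phagocytes (5.56 to 7.52 CPM in NTG and 28.6 to 39.7 CPM in APP/PS1 mice), Mpeg1, which encodes perforin-2 (31.3 to 38 CPM in NTG and 116 to 183 CPM in APP/PS1 mice), Laptm5 (24.8 to 33.1 CPM in NTG and 63 to 91.2 CPM in APP/PS1 mice) and Ptprc, the leukocyte antigen CD45 (5.65 to 7.2 CPM in NTG and 12.7 to 22.2 CPM in APP/PS1 mice). Their log2 fold changes were 2.28, 2.09, 1.397 and 1.52 (adjusted p between 4.99e-05 and 0.000419). Homeostatic microglial genes had smaller values. Of 19 members 10 rose, with a median of 0.48 and a largest value of 1.33. Csf1r, the receptor that microglia need for survival, had 89.9, 90.5, 106 and 98.9 CPM in NTG mice and 184, 198, 171, 227 and 214 CPM in APP/PS1 mice (log2 fold change 1.05, standard error 0.09, adjusted p = 0.000175). Gpr34 (1.32, adjusted p = 0.000119) and Siglech (1.11, adjusted p = 0.000139) rose by similar amounts. None of these 3 genes overlapped between the groups. Without mouse 16 the numbers of rising members were 21, 13 and 13, with medians of 1.71, 1.61 and 0.55.

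Genes of degradation and lipid handling were among the rises, most of the proteases and a smaller share of the other lysosomal genes. Of the 95 tested genes of the 4 lists of clearance and amyloid processing 34 rose (35.8%, against 4.34% of all genes) and 0 fell. Some of them, such as Trem2, Ctsd, Cd68, Laptm5 and Ctss, also belong to the immune lists, so that these counts are not separate from those above. At an unadjusted p under 0.05, 47 of the 95 were higher (49.5%, against 10.6% of all genes) and 1 lower. DESeq2 called 42 higher, the test without mouse 16 44 and that with the ribosomal share as a covariate 33, and none was called lower by any of these. Of the cathepsins and cystatins 10 of 16 rose (median 0.67). Ctsd, the main aspartic protease of lysosomes, was the most abundant of the 4 named, with 388, 364, 356 and 383 CPM in NTG mice and 789, 1075, 1005, 1391 and 1119 CPM in APP/PS1 mice (log2 fold change 1.53, standard error 0.14, adjusted p = 0.000242). Ctss, a cathepsin of microglia that also trims the MHC class II invariant chain, had 77.6, 72.2, 77 and 72.1 CPM in NTG mice and 163, 246, 242, 301 and 243 CPM in APP/PS1 mice (log2 fold change 1.68, standard error 0.15, adjusted p = 0.000202), and Ctsz had 30.3 to 36.7 CPM in NTG and 75.9 to 120.5 CPM in APP/PS1 mice (log2 fold change 1.52, standard error 0.13, adjusted p = 0.000171). Per length, in the RPKM of the authors, the group means were 119 RPKM in NTG and 356 RPKM in APP/PS1 mice for Ctsd and 44 RPKM in NTG and 147 RPKM in APP/PS1 mice for Ctss. Of the lysosomal hydrolases and membrane proteins 12 of 34 rose, with a median of 0.27. Beside Cd68 and Laptm5, given above, Gusb, beta-glucuronidase, was among those that rose (13.8 to 16.5 CPM in NTG and 27.8 to 41.6 CPM in APP/PS1 mice; log2 fold change 1.15, standard error 0.11, adjusted p = 0.000315). Without mouse 16 the lysosomal count was 18, the median 0.33. Of the genes of lipid handling and phagocytic receptors 13 of 24 rose (median 0.51), or 8 without NTG mouse 8 or 9. Gpnmb, a glycoprotein of lipid-laden phagocytes, had 3.53, 2.55, 2.6 and 3.09 CPM in NTG mice and 6.01, 25.7, 26.1, 20.4 and 24.9 CPM in APP/PS1 mice (log2 fold change 2.81, standard error 0.39, adjusted p = 0.002). Mouse 16 had by far the lowest value of the APP/PS1 mice, yet above every NTG mouse. Ch25h, which makes 25-hydroxycholesterol, had 0.795, 0.82, 0.703 and 0.831 CPM in NTG mice and 2.05, 2.39, 3.28, 4.99 and 3.86 CPM in APP/PS1 mice (log2 fold change 2.07, standard error 0.26, adjusted p = 0.00128). Pros1, a bridging ligand between phagocytes and dying cells, had 12.7 to 14.7 CPM in NTG and 21.1 to 32.7 CPM in APP/PS1 mice (log2 fold change 0.96, standard error 0.12, adjusted p = 0.0011).

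Many receptors by which phagocytes detect tagged targets and microbial products rose. Of the complement list 12 of 22 members rose (median 0.84). C1qa, a chain of the first component, had 44.1, 39.1, 41.8 and 40.1 CPM in NTG mice and 86.9, 134, 140.2, 188 and 139.99 CPM in APP/PS1 mice (log2 fold change 1.74, standard error 0.18, adjusted p = 0.000494). C3ar1, the receptor for C3a, had 3.48, 2.48, 2.8 and 2.02 CPM in NTG mice and 8.72, 11.7, 10.7, 16 and 11.4 CPM in APP/PS1 mice (log2 fold change 2.12, standard error 0.203, adjusted p = 0.000315), and Itgb2, the shared beta chain of the complement receptors, had 6.19 to 7.45 CPM in NTG and 18.2 to 30.1 CPM in APP/PS1 mice (log2 fold change 1.798, standard error 0.15, adjusted p = 0.000159). Of the Fc receptors and their signal chain 13 of 14 rose (median 1.25, lowest 0.26). Fcer1g, the signalling chain shared by several of them, had 5.16, 4.13, 4.69 and 4.29 CPM in NTG mice and 12.7, 14.5, 20.7, 20.3 and 21.8 CPM in APP/PS1 mice (log2 fold change 1.98, standard error 0.17, adjusted p = 0.000207). The activating receptors Fcgr3 (1.498, adjusted p = 0.000242) and Fcgr1 (1.32, adjusted p = 0.000507) rose, and so did the inhibitory receptor Fcgr2b (1.86, adjusted p = 0.000585). Of the Toll-like receptors and adaptors 10 of 14 rose (median 1.28), and 13 without mouse 16. The 4 with the smallest p all belong to the endosomal group or its partners. Tlr7, which senses single-stranded RNA, had 4.36, 3.07, 3.73 and 3.32 CPM in NTG mice and 12.2, 14, 12.3, 15.3 and 17.3 CPM in APP/PS1 mice (log2 fold change 1.97, standard error 0.14, adjusted p = 0.000119). Tlr13 (1.47, adjusted p = 0.000512), Tlr12 (1.59, adjusted p = 0.00139) and Unc93b1 (1.09, adjusted p = 0.00116), which carries such receptors to endosomes, followed.

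Among chemokines 6 of 13 tested members rose (median 1.36). Ccl3 had 0.545, 0.119, 0.653 and 0.277 CPM in NTG mice and 2.77, 3.6, 3.7, 5.41 and 5.19 CPM in APP/PS1 mice (log2 fold change 3.35, standard error 0.403, adjusted p = 0.00103). Ccl4, its neighbour on chromosome 11, had 0.318, 0.254, 0.276 and 0.149 CPM in NTG mice and 1.8, 1.44, 1.6, 2.59 and 2.16 CPM in APP/PS1 mice (log2 fold change 2.94, standard error 0.26, adjusted p = 0.000207). In both chemokines the groups were far apart. Ccl6 had 1.64 to 2.4 CPM in NTG and 5.17 to 11.3 CPM in APP/PS1 mice (log2 fold change 1.77, standard error 0.23, adjusted p = 0.00146). Cxcl10, an interferon-induced ligand of Cxcr3, had 0.466, 0.432, 0.577 and 0.373 CPM in NTG mice and 2.27, 4.04, 10.1, 4.83 and 3.22 CPM in APP/PS1 mice (log2 fold change 3.41, standard error 0.45, adjusted p = 0.00155). Here mouse 18 stood at more than 2 times the next APP/PS1 mouse. In the list of IL-6 family and colony-stimulating factor signalling 10 of 18 rose and 1 fell, namely Cntfr, the receptor for ciliary neurotrophic factor (-0.22, adjusted p = 0.0289, named after its value was seen), and without mouse 16 12 rose. Osmr, the oncostatin M receptor, had 4.4, 4.1, 4.89 and 3.7 CPM in NTG mice and 21.2, 29.4, 34.4, 39 and 26.1 CPM in APP/PS1 mice (log2 fold change 2.81, standard error 0.18, adjusted p = 8.12e-05). Csf3r, the receptor for granulocyte colony-stimulating factor, had 8.04, 6.74, 7.47 and 7.04 CPM in NTG mice and 24.7, 30.01, 28.6, 35.5 and 31.4 CPM in APP/PS1 mice (log2 fold change 2.04, standard error 0.11, adjusted p = 2.79e-05). The transcription factor Stat3, which acts downstream of such receptors, had 47.8 to 53.1 CPM in NTG and 69.4 to 96.5 CPM in APP/PS1 mice (log2 fold change 0.714, standard error 0.09, adjusted p = 0.0012). In the list of interleukin-1, TNF and the inflammasome 8 of 19 rose (median 0.53). The 4 with the smallest p were Casp8 (0.97, adjusted p = 0.000696), the inflammasome adaptor Pycard (1.25, adjusted p = 0.000928), Tnfaip8l2 (1.09, adjusted p = 0.00129) and the cytokine Il1a (1.100, adjusted p = 0.00547). Without mouse 16 the latter list had 12 rising members.

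Interferon-stimulated genes formed the list with the highest share of called members among those with more than 20 tested. Of 30 tested members 25 rose, all 30 had a positive log2 fold change, and the median was 1.34. With each mouse left out in turn between 18 and 29 were called, the most without mouse 16. Lgals3bp, a secreted glycoprotein, had 18.1, 19.6, 17.5 and 21.9 CPM in NTG mice and 33.9, 72.1, 67.7, 73.6 and 60.7 CPM in APP/PS1 mice (log2 fold change 1.68, standard error 0.205, adjusted p = 0.0011). Ifitm3, a membrane protein that restricts virus entry, had 5.24, 6.81, 4.83 and 4.52 CPM in NTG mice and 10.4, 20.2, 22.4, 16.5 and 14.8 CPM in APP/PS1 mice (log2 fold change 1.66, standard error 0.22, adjusted p = 0.00161). Trim30a had 3.25, 3.47, 2.61 and 3.36 CPM in NTG mice and 5.28, 8.73, 11.4, 10.6 and 8.92 CPM in APP/PS1 mice (log2 fold change 1.502, standard error 0.21, adjusted p = 0.00194), and Ifi27l2a had 1.27, 1.71, 0.929 and 1.01 CPM in NTG mice and 2.88, 5.21, 5.93, 4.96 and 4.33 CPM in APP/PS1 mice (log2 fold change 1.93, standard error 0.25, adjusted p = 0.00139). In these 4 genes mouse 16 was the lowest APP/PS1 mouse, but above all NTG mice. Mouse 16 was the lowest APP/PS1 mouse in 29 and mouse 18 the highest in 26 of the 30 genes. Of the interferon-inducible GTPases 5 of 11 rose (median 1.25). This count depended on single mice, with all 11 called without mouse 16, 3 without NTG mouse 7 or 8 or APP/PS1 mouse 20, and 2 without NTG mouse 9 or 10. DESeq2 called 10, and 8 were called with the ribosomal share as a covariate. Irgm1, an immunity-related GTPase, had 8.23, 8.78, 7.63 and 8.02 CPM in NTG mice and 11.8, 20.6, 28.7, 18.9 and 17.2 CPM in APP/PS1 mice (log2 fold change 1.25, standard error 0.21, adjusted p = 0.00611). Gbp3 (1.41, adjusted p = 0.0114) and Gbp5 (1.58, adjusted p = 0.0202) rose too, although their annotated spans overlap, so that reads can count for both. Gbp2 had 3.91, 4.85, 3.73 and 3.75 CPM in NTG mice and 4.21, 8.84, 16.8, 12.6 and 10.8 CPM in APP/PS1 mice (log2 fold change 1.39, standard error 0.32, adjusted p = 0.0338), and mouse 16 lay within the NTG range. When each of the 9 mice was left out in turn, Gbp2 was called 1 time, without mouse 16, and Gbp5 7 times.

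Promoters of interferon-stimulated genes are shown because these genes moved together and because many such genes are known to carry a shared element, the interferon-stimulated response element. The 3 printed are those of the listed genes with the smallest p that held GAAANNGAA, a short form of this element, on either strand. Each sequence runs 5′ to 3′ on the gene's strand from 250 bases before to 50 bases after the start site (RefSeq, GRCm38.p6, the assembly of mm10), with the matches in capitals.
Ifitm3, chr7:141010695-141010994, strand -: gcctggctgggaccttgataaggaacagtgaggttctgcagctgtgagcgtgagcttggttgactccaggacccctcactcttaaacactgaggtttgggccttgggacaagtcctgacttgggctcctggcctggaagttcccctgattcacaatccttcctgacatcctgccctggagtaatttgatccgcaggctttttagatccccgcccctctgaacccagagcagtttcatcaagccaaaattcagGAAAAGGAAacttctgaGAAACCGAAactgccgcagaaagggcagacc
Trim30a, chr7:104465144-104465443, strand -: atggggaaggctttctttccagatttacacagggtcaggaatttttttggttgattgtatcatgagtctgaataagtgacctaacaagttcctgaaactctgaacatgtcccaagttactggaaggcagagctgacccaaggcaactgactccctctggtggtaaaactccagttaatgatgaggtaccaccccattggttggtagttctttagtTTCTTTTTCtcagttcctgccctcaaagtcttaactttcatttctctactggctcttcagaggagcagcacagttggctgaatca
Oas1a, chr5:120907476-120907775, strand -: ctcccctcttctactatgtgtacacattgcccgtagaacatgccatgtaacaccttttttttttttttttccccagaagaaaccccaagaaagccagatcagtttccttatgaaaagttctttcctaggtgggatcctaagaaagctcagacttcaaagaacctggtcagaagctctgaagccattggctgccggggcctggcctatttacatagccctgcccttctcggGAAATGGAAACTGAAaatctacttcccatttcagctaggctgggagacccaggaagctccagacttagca
The Ifitm3 promoter held 2 matches, which began 2 and 19 bases after the start site. That of Trim30a held 1, which began 35 bases before it on the opposite strand, and that of Oas1a held 2 overlapping matches from 20 bases before it. Oas1a, which senses double-stranded RNA, had 0.602, 0.88, 0.339 and 0.298 CPM in NTG mice and 1.2, 2.39, 3.07, 2.76 and 2.1 CPM in APP/PS1 mice (log2 fold change 2.14, standard error 0.36, adjusted p = 0.00667). Over the list, 24 of the 33 interferon-stimulated genes had an entry, with 27 promoters, and 63.0% of these held the letters, against 8.56% of all 32851 promoters of the same length. Of the GTPases 9 of 10 promoters held them, and 6 of 10 held TTCNNNGAA, the GAS element of interferon-gamma responses, against 8.30% of all promoters. In the MHC class I list 27.8% of 18 promoters held GAAANNGAA, in the reactive astrocyte list 18.8% of 32, in the immediate early genes 18.5% of 27, in the list of microglia and macrophage identity 17.6% of 17 and in the plaque-associated microglia list 15.4% of 26. Of the promoters of all genes that rose 11.98% held GAAANNGAA, and of those of genes that fell 8.29%, against 6.997% of the promoters of all genes tested. Of the 626 promoters of genes that rose 8.31% held GAGGAAGT, a form of the PU.1 site, against 2.79% of the promoters of all genes tested. On the gene's strand alone the shares were 3.35% against 1.39%. The plaque-associated microglia list held it in 3.85% of 26 promoters and the list of microglia and macrophage identity in 5.88% of 17, which was 1 promoter each. The lysosomal list held it in 10% of 30. The lysosomal list held CACGTGAC, the E-box found in lysosomal genes, in 20% of 30 promoters, against 3.79% of the promoters of all genes tested, and on the gene's strand alone in 10% against 2.18%. The cyclic AMP response element TGACGTCA stood in 5.85% of 205 promoters of genes that fell and in 0.958% of promoters of genes that rose, against 2.95% of the promoters of genes tested. These are shares of letters in a window and say nothing of binding.

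Genes rose in both arms of antigen presentation. In the MHC class I list 11 of 19 members rose (median 1.23), or 14 without mouse 16 and 7 without NTG mouse 9. B2m, the light chain common to all class I molecules, had 83.4, 76.1, 65.7 and 62.6 CPM in NTG mice and 122, 215, 256, 236 and 181 CPM in APP/PS1 mice (log2 fold change 1.49, standard error 0.198, adjusted p = 0.00161). Psmb8, a subunit of the immunoproteasome, had 2.56, 3.36, 3.13 and 3.37 CPM in NTG mice and 6.78, 9.28, 13, 10.01 and 9.12 CPM in APP/PS1 mice (log2 fold change 1.64, standard error 0.18, adjusted p = 0.000597). Nlrc5, the class I transactivator, had 1.75, 1.98, 1.1 and 1.42 CPM in NTG mice and 2.68, 5.35, 7.9, 4.53 and 5.06 CPM in APP/PS1 mice (log2 fold change 1.71, standard error 0.29, adjusted p = 0.00701). In all 3 genes mouse 18 was highest and mouse 16 lowest among APP/PS1 mice. H2-Q4 had 3.18 to 5.18 CPM in NTG and 9.18 to 21.3 CPM in APP/PS1 mice (log2 fold change 1.94, standard error 0.25, adjusted p = 0.00141), but its count is uncertain because the class I genes are near copies of one another and an overlapping gene model, Gm11131, can share its reads. In the MHC class II list 6 of 10 members rose (median 1.22). Cd74, the invariant chain, had 7.95, 10.1, 5.37 and 7.27 CPM in NTG mice and 16.4, 41.6, 49.2, 20.9 and 18.4 CPM in APP/PS1 mice (log2 fold change 1.93, standard error 0.36, adjusted p = 0.0117). H2-Ab1 had 1.32, 1.91, 1.69 and 1.73 CPM in NTG mice and 3.72, 6.04, 5.9, 3.12 and 3.12 CPM in APP/PS1 mice (log2 fold change 1.401, standard error 0.24, adjusted p = 0.00777). These genes were highest in mice 17 and 18, and mouse 19, the highest in most microglial genes, was not. H2-DMa, which loads peptides onto class II molecules, had 7.93 to 10.3 CPM in NTG and 12 to 15.6 CPM in APP/PS1 mice (log2 fold change 0.56, standard error 0.105, adjusted p = 0.011). With the ribosomal share as a covariate 1 class II member was called, and Cd74, H2-Ab1 and H2-DMa were not (adjusted p = 0.0641, 0.0689 and 0.0897).

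A class II gene outside the tested set was nearly undetected in NTG mice. H2-Ea-ps, which like the other genes of this paragraph was named after its counts were seen, is annotated as a class II pseudogene (ENSMUSG00000036322, chr17:34342933-34344643 of mm10) and had 0, 1, 0 and 0 counts in NTG mice and 94, 206, 378, 127 and 70 counts in APP/PS1 mice. Against 3 counts in each NTG mouse (0.0371 CPM as the mean of the 4), its mean of 1.85 ± 1.08 CPM (SD, n = 5) was at least 49.9-fold higher. The background of the mice is mixed, and the strain origin of the MHC region in each mouse was not tested. It was 1 of 9 genes with at most 3 counts in every NTG mouse that were called when no filter on low counts was applied. Such a selection leaves only genes that are higher in APP/PS1 mice, so that their direction is no result. Genes with so few counts in every APP/PS1 mouse were not searched for. No gene of the filtered set had so few counts in every NTG mouse. Apoc4, an apolipoprotein gene next to Apoe, had 1, 2, 2 and 0 counts in NTG mice and 26, 23, 47, 36 and 8 counts in APP/PS1 mice, at least 8.26-fold higher. For the other 7 (Calml3, Gm12954, Gm20452, St6galnac1, Gm11545, Gm5174 and Cer1) the bound lay between 2.12-fold and 4.93-fold. Each bound sets the APP/PS1 mean against the NTG limit and leaves out the spread among APP/PS1 mice. Gm5174, for one, had 16, 10, 3, 2 and 7 counts in these mice.

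Reactive astrocyte genes rose and a few genes of resting astrocytes fell. Of the 87 tested genes of 4 glial lists 19 rose (21.8%, against 4.34% of all genes) and 3 fell (3.45%, against 1.34%). Without adjustment 25 were higher (28.7%, against 10.6%) and 11 lower (12.6%, against 8.05%) at a p under 0.05. DESeq2 called 20 higher and 7 lower, the test without mouse 16 22 and 5, and that with the ribosomal share as a covariate 18 and 3. Of the reactive list 18 of 25 members rose (median 1.43). Gfap (ENSMUSG00000020932, chr11:102887336-102900912 of mm10), the intermediate filament of astrocytes, had 508, 348, 338 and 326 CPM in NTG mice and 1017, 1745, 1963, 2597 and 2024 CPM in APP/PS1 mice (log2 fold change 2.298, standard error 0.25, adjusted p = 0.000649). NTG mouse 7 was the highest of its group, and mouse 16 was the lowest APP/PS1 mouse at 2 times that value. Osmr and Psmb8, described above, were also among the first 4 by p, and so was Ugt1a1 (1.61, adjusted p = 0.000121), which shares exons with the other Ugt1a genes. Of 28 homeostatic astrocyte genes 3 fell and 0 rose (median -0.19), and without mouse 16 5 fell and 1 rose. Fgfr3, a growth factor receptor of astrocytes, had 164, 164, 177 and 169.7 CPM in NTG mice and 115, 123, 122, 123 and 128 CPM in APP/PS1 mice (log2 fold change -0.46, standard error 0.04, adjusted p = 0.000294). Gpc5, the proteoglycan glypican 5, had 44.6, 50.3, 54.2 and 50.8 CPM in NTG mice and 30.9, 24.6, 31.2, 28.5 and 25.1 CPM in APP/PS1 mice (log2 fold change -0.83, standard error 0.09, adjusted p = 0.000512). Both genes were lower in every APP/PS1 than in every NTG mouse. Slc1a2, the main glutamate transporter of astrocytes, had 2659, 3446, 3263 and 3296 CPM in NTG mice and 2696, 2228, 2028, 2403 and 2557 CPM in APP/PS1 mice (log2 fold change -0.41, standard error 0.102, adjusted p = 0.0442). For Slc1a2 the groups overlapped, since NTG mouse 7 lay below APP/PS1 mouse 16. Of the 9 tests with 1 mouse fewer it was called in 2, those without NTG mouse 7 and without mouse 16, and not with the ribosomal share as a covariate (adjusted p = 0.198). Cbs, of the transsulfuration pathway, had 28.8 to 30.5 CPM in NTG and 15.8 to 27.4 CPM in APP/PS1 mice (log2 fold change -0.52, adjusted p = 0.0565).

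**Figure D3:**
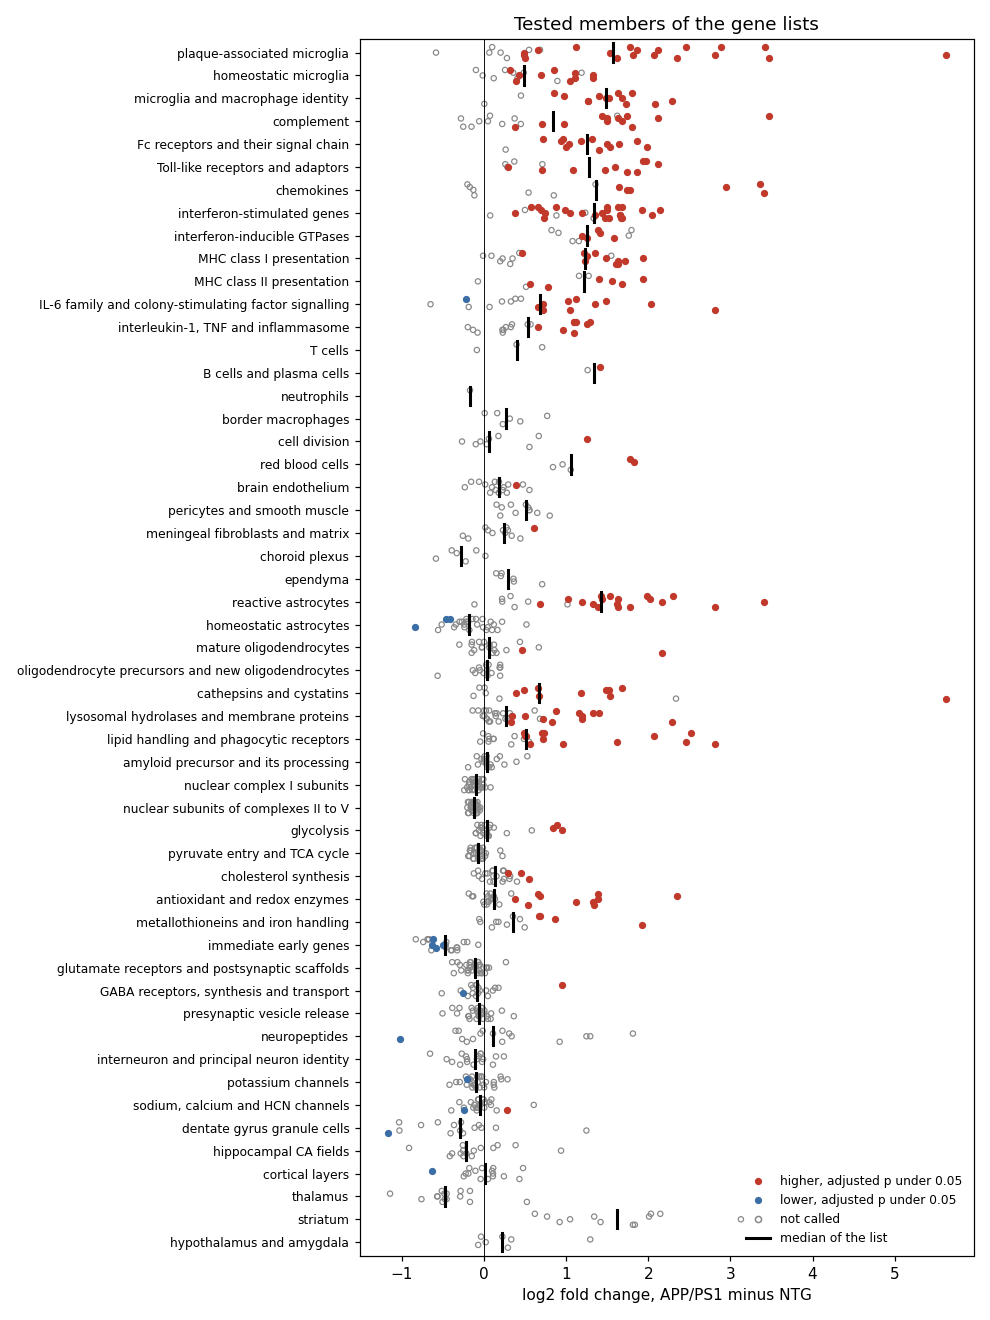
Log2 fold change, APP/PS1 minus NTG, of every tested member of the 53 gene lists, one list per row; red and blue points are members called higher and lower, open circles those not called, and the black bar is the median of the list. Lists of microglia, interferon and MHC genes lie to the right with many red points, and those of mitochondria and most of those of neurons have medians close to 0. The median of the immediate early genes lies lower, at -0.47.

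The medians of oligodendrocyte genes lay near 0. Of 20 genes of mature oligodendrocytes 2 rose (10%, against 4.34% of all genes, median 0.07), and 3 without mouse 16. Cldn11, a tight junction protein of myelin, had 126.5, 118, 107 and 110.3 CPM in NTG mice and 141, 162, 155, 173 and 163 CPM in APP/PS1 mice (log2 fold change 0.46, standard error 0.07, adjusted p = 0.00366). Serpina3n, a serine protease inhibitor that is also raised in reactive astrocytes, had 38.3, 20.7, 40.5 and 22.9 CPM in NTG mice and 58, 130.2, 152, 188 and 161 CPM in APP/PS1 mice (log2 fold change 2.17, standard error 0.34, adjusted p = 0.00408). In both genes the groups did not overlap. Serpina3n is also a member of the reactive astrocyte list and is counted there too. Of the 15 genes of precursors and new oligodendrocytes none was called (1 higher and 0 lower at an unadjusted p under 0.05, 0 and 0 by DESeq2), with log2 fold changes between -0.56 and 0.198. The lowest, Tcf7l2, a transcription factor of new oligodendrocytes that thalamic neurons also express, had 5.31, 31.7, 32.8, 35.1 and 35.8 CPM in APP/PS1 mice and 31.5, 37.3, 46.1 and 51.6 CPM in NTG mice, so that mouse 16 alone lay far below the rest.

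The genes that fell most did not belong to 1 listed group. By the rule used for the rises they were Myoc, C030005K06Rik, 7420461P10Rik, Gramd3, Aox4, Lgr6, Hjurp, A630081J09Rik, Frem2 and Gm14305. Myoc (ENSMUSG00000026697, chr1:162639155-162649693 of mm10), which encodes the secreted glycoprotein myocilin, had 31.4, 46.2, 28.7 and 29.5 CPM in NTG mice and 12.4, 11.4, 11.4, 8.51 and 8.61 CPM in APP/PS1 mice (log2 fold change -1.695, standard error 0.17, adjusted p = 0.000382). The annotated span of 7420461P10Rik (2.55 to 4.67 CPM in NTG and 0.856 to 1.33 CPM in APP/PS1 mice; log2 fold change -1.61, standard error 0.196, adjusted p = 0.0011) overlaps that of Myoc, and reads of the 2 genes cannot be told apart without strand. Gramd3, a GRAM domain protein, had 17.4, 19.3, 18.7 and 17.4 CPM in NTG mice and 6.33, 6.15, 6.67, 6.61 and 5.97 CPM in APP/PS1 mice (log2 fold change -1.52, standard error 0.06, adjusted p = 7.33e-06). The APP/PS1 values of Gramd3 lay within 1 CPM of one another. Aox4, an aldehyde oxidase, had 3.01, 3.49, 3.34 and 1.96 CPM in NTG mice and 0.745, 0.976, 1.05, 1.25 and 1.17 CPM in APP/PS1 mice (log2 fold change -1.505, standard error 0.199, adjusted p = 0.00161), and Lgr6, a receptor for R-spondins, had 6.36, 6.43, 7.48 and 8.74 CPM in NTG mice and 1.7, 2.5, 3.44, 2.59 and 2.56 CPM in APP/PS1 mice (log2 fold change -1.502, standard error 0.18, adjusted p = 0.0011). Frem2, a basement membrane protein, had 13.6, 12.5, 12.8 and 14.7 CPM in NTG mice and 5.87, 5.01, 4.64, 6.12 and 5.35 CPM in APP/PS1 mice (log2 fold change -1.31, standard error 0.096, adjusted p = 0.000119). Hjurp, the chaperone of the centromeric histone, had 70.04, 38.4, 43.4 and 71 CPM in NTG mice and 14.6, 15.4, 17.9, 16.6 and 36.8 CPM in APP/PS1 mice (log2 fold change -1.46, standard error 0.302, adjusted p = 0.0186). When each of the 9 mice was left out in turn, Hjurp was called 5 times and A630081J09Rik (1.39 to 2.74 CPM in NTG and 0.445 to 1.35 CPM in APP/PS1 mice; log2 fold change -1.34, standard error 0.33, adjusted p = 0.0411) 1 time, and the other 8 genes were called every time. With the ribosomal share as a covariate Hjurp was not called (adjusted p = 0.0944). C030005K06Rik had 1.82 to 4.07 CPM in NTG and 0.858 to 1.14 CPM in APP/PS1 mice (log2 fold change -1.65, standard error 0.21, adjusted p = 0.00142), and its span overlaps that of Tnfaip8. All of these values were lower in every APP/PS1 than in every NTG mouse, as the rule for naming these genes required.

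Neuronal genes gave 10 calls, and none of their 8 falls was called with the ribosomal share as a covariate. Of the 187 tested genes of 8 neuronal lists 2 rose (1.07%, against 4.34% of all genes) and 8 fell (4.28%, against 1.34%). At an unadjusted p under 0.05, 5 were higher (2.67%, against 10.6%) and 37 lower (19.8%, against 8.05%). DESeq2 called 3 higher and 15 lower, and the test without mouse 16 called 2 and 16. With the ribosomal share as a covariate 1 was called higher and 1 lower, the latter in the list of presynaptic vesicle release. The falls were those of 4 immediate early genes, 1 neuropeptide gene, 1 GABA gene and 2 channel genes. Of 21 immediate early genes 4 fell, and all 21 had a negative log2 fold change (median -0.47). Nr4a2, an orphan nuclear receptor, had 45.3, 44, 57 and 50.5 CPM in NTG mice and 25.7, 30.5, 37.2, 28.6 and 37.2 CPM in APP/PS1 mice (log2 fold change -0.63, standard error 0.12, adjusted p = 0.0143). Bdnf, the neurotrophin, had 20.4, 30.6, 24.8 and 22.2 CPM in NTG mice and 12.4, 19.6, 15, 16.3 and 16.3 CPM in APP/PS1 mice (log2 fold change -0.62, standard error 0.14, adjusted p = 0.0331). Fosl2 (-0.498, adjusted p = 0.028) and Nr4a3 (-0.58, adjusted p = 0.0367) fell as well, and the groups did not overlap in any of these 4 genes. The list varied widely among mice of a group, from -0.51 to 0.45 in NTG and from -1.15 in mouse 19 to 0.25 in mouse 16. With each mouse left out in turn its called members numbered 6 without mouse 16, 2 without NTG mouse 10, 1 without NTG mouse 8 or mice 18, 19 or 20, 0 without NTG mouse 9 and 3 otherwise. Nr4a2 was called every time except without NTG mouse 9, Bdnf and Fosl2 3 times and Nr4a3 2 times. With the ribosomal share as a covariate the adjusted p of Nr4a2, Bdnf, Fosl2 and Nr4a3 was 0.116, 0.261, 0.072 and 0.1895. Of 17 tested neuropeptide genes 1 fell, or 2 without mouse 16. Cort, the somatostatin-like peptide cortistatin, had 2, 3.04, 2.01 and 2.86 CPM in NTG mice and 0.848, 1.39, 1.33, 1.02 and 1.47 CPM in APP/PS1 mice (log2 fold change -1.03, standard error 0.201, adjusted p = 0.0143), whereas Sst had 98.8 to 136 CPM in NTG and 83.3 to 113 CPM in APP/PS1 mice (log2 fold change -0.31, adjusted p = 0.134). Cort was not called without NTG mouse 10, nor with the ribosomal share as a covariate (adjusted p = 0.128).

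Genes of synaptic transmission had medians slightly below 0. In the list of glutamate receptors and postsynaptic scaffolds 0 rose and 0 fell of 32, with 27 negative values and a median of -0.11. In that of presynaptic vesicle release 0 rose and 0 fell of 29 (median -0.06). At an unadjusted p under 0.05, 6 and 5 members of these lists were lower and 0 and 0 higher, against 8.05% lower and 10.6% higher of all genes. DESeq2 called 0 and 3 lower, against 3.47% of all genes. With 1 mouse fewer, 1 member of each list was called without mouse 16 or NTG mouse 7, as was 1 of presynaptic release without NTG mouse 9. The smallest p belonged to Cacng2, stargazin (-0.16, adjusted p = 0.126), and to Syt4, a synaptotagmin (-0.33, adjusted p = 0.0543). Among GABA genes 1 rose and 1 fell of 19, or 1 and 3 without mouse 16, while 1 was called without NTG mouse 10 or mouse 20 and 0 without NTG mouse 9. The gene that rose was Gabra2, a receptor subunit, which had 64.8, 66.2, 35.8 and 36.1 CPM in NTG mice and 90.1, 104, 87.4, 96.2 and 109.9 CPM in APP/PS1 mice (log2 fold change 0.94, standard error 0.198, adjusted p = 0.0202). NTG mice 7 and 8 lay at nearly 2 times the level of NTG mice 9 and 10 for Gabra2, so that the controls fell into a pair of levels below all APP/PS1 mice, and the gene was called 7 times when each of the 9 mice was left out in turn. Of 29 potassium channel genes 1 fell, Kcna2 (92.5 to 101 CPM in NTG and 80.4 to 84.9 CPM in APP/PS1 mice; log2 fold change -0.204, standard error 0.04, adjusted p = 0.0151), which was not called with the ribosomal share as a covariate (adjusted p = 0.107), and without mouse 16 or mouse 20 2 channel genes were called. Of 25 sodium, calcium and HCN channel genes 1 fell and 1 rose, Cacna1b (0.28, adjusted p = 0.0275). Cacna1b was called in 3 of the 9 tests with 1 mouse fewer and not with the covariate (adjusted p = 0.156), and the calls of this list numbered 2 without mouse 16, 0 without NTG mice 9 or 10 or mouse 17, and 1 otherwise. In the list of interneuron and principal neuron identity 0 rose and 0 fell of 18 (median -0.11). At an unadjusted p under 0.05, 3 of these were lower and 0 higher, against 8.05% and 10.6% of all genes. DESeq2 called 0, and 1 was called without mouse 20.

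Markers of brain regions were examined for what each piece of tissue held. Of the 80 tested genes of 6 region lists 0 rose and 2 fell (2.5%, against 1.34% of all genes). At an unadjusted p under 0.05, 5 were higher (6.25%) and 16 lower (20%, against 8.05%). DESeq2 called 2 higher and 8 lower, the test without mouse 16 1 and 7, and that with the ribosomal share as a covariate 0 and 0. Of 15 dentate gyrus genes 1 fell, Tdo2, tryptophan dioxygenase (3.86, 3.13, 2.66 and 2.4 CPM in NTG mice and 0.768, 1.55, 1.76, 1.38 and 1.22 CPM in APP/PS1 mice; log2 fold change -1.17, standard error 0.23, adjusted p = 0.0144), and the median was -0.29, or -0.297 without mouse 16 with 3 falls, and 2 genes were called without NTG mouse 7. With the covariate Tdo2 was not called (adjusted p = 0.119). Of 15 thalamus genes 14 had negative values and none was called (median -0.48, -0.28 without mouse 16, 3 lower at an unadjusted p under 0.05, 3 by DESeq2 and 1 called without mouse 17). Of 15 CA field genes none was called, or 2 without mouse 16 and 1 without mouse 20 (1 higher and 4 lower at an unadjusted p under 0.05, 1 and 2 by DESeq2). Fibcd1, a CA1 marker, had 63.1, 60.2, 58.3 and 57.9 CPM in NTG mice and 14.8, 25.6, 39.5, 38.7 and 40.6 CPM in APP/PS1 mice (log2 fold change -0.91, adjusted p = 0.066). Of the cortical layer list 1 of 16 fell, Nr4a2, described above, and its median was 0.01. Without mouse 16 this list had 1 rise and 1 fall, and without NTG mouse 9 no call. The striatum list had a median of 1.62 with all mice and 0.03 without mouse 16, when 1 member fell. Penk, the precursor of enkephalin, had 39.2, 31.6, 29.6 and 42.7 CPM in NTG mice and 460.1, 51.6, 34, 37.9 and 45.5 CPM in APP/PS1 mice. Here mouse 16 stood far above the others. The summed level of the 15 markers of hypothalamus and amygdala, of which 7 were tested and none called, was 269 to 444 CPM in NTG and 295 to 379 CPM in APP/PS1 mice. At an unadjusted p under 0.05, 1 of these was higher.

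Nuclear genes of the respiratory chain, whose complex I is the target of the drug tested in other mice of the series, had small negative values. Of 36 complex I subunit genes 34 had a negative log2 fold change (median -0.09, range -0.24 to 0.08), and none was called. Of 37 subunit genes of complexes II to V all 37 were negative (median -0.12, lowest -0.203), again with none called. At an unadjusted p under 0.05, 7 of the 36 and 9 of the 37 were lower, against 8.05% of all genes, and DESeq2 called 1 and 4. Ndufs7 had 84.1, 79.6, 78.4 and 76.1 CPM in NTG mice and 68.6, 73.6, 72.7, 72.1 and 64.9 CPM in APP/PS1 mice (log2 fold change -0.18, standard error 0.05, adjusted p = 0.0763). Cyc1, cytochrome c1, had 144, 143, 137 and 142 CPM in NTG mice and 119, 131, 134, 129 and 123 CPM in APP/PS1 mice (log2 fold change -0.15, standard error 0.05, adjusted p = 0.0875). The mice of each group were close together for both genes, and the groups did not overlap. Most genes of the lists were not so separated. The groups lay apart, lower in APP/PS1 mice, in 1 of the 36 complex I genes and 7 of the 37 others, against 3.81% of all genes. The level of the complex I list overlapped, at -0.12 to 0.13 in NTG and -0.24 to -0.02 in APP/PS1 mice. Without mouse 16 the medians were -0.09 and -0.12. In pyruvate entry and the TCA cycle 0 rose and 0 fell of 26 (median -0.07), with Idh2 (0.22, adjusted p = 0.104) and Pdhb (-0.18, adjusted p = 0.14) at the smallest p, while 1 was higher and 4 were lower at an unadjusted p under 0.05 DESeq2 called 1, and 1 rose without mouse 16.

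Some genes of other metabolic lists rose. Of the 185 tested genes of all 7 metabolic lists, the respiratory chain included, 20 rose (10.8%, against 4.34% of all genes) and 0 fell. Without mouse 16, 31 rose, and at an unadjusted p under 0.05, 35 were higher and 21 lower with all mice. Of 24 glycolysis genes 3 rose (12.5%, median 0.03). Hk2, an inducible hexokinase, had 5.63, 4.06, 4.92 and 3.83 CPM in NTG mice and 6.03, 7.57, 8.77, 9.73 and 9.05 CPM in APP/PS1 mice (log2 fold change 0.84, standard error 0.16, adjusted p = 0.0141), and Hk3, the hexokinase of myeloid cells, had 2.226, 2.01, 2.1 and 2.216 CPM in NTG mice and 3.74, 4.31, 3.55, 4.01 and 5.08 CPM in APP/PS1 mice (log2 fold change 0.95, standard error 0.12, adjusted p = 0.00144). The third was Slc2a4, the glucose transporter GLUT4 (0.89, adjusted p = 0.0245), which was called 2 times when each of the 9 mice was left out in turn and not with the ribosomal share as a covariate (adjusted p = 0.0573). Of 22 genes of cholesterol synthesis 3 rose (13.6%), or 9 without mouse 16 and 8 with the covariate. Among them were Nsdhl (16.5 to 19.9 CPM in NTG and 20.8 to 28.5 CPM in APP/PS1 mice; log2 fold change 0.55, standard error 0.098, adjusted p = 0.00914) and Fdps, farnesyl diphosphate synthase (35.5 to 39.9 CPM in NTG and 42.5 to 58.7 CPM in APP/PS1 mice; log2 fold change 0.45, standard error 0.08, adjusted p = 0.0118). Of the antioxidant and redox list 10 of 27 rose (37.0%, median 0.12). Its genes with the smallest p included enzymes of differing kinds. Gpx1, a glutathione peroxidase, had 40.3, 41.6, 44.1 and 39.1 CPM in NTG mice and 62.5, 60.6, 59.1, 58.6 and 57.7 CPM in APP/PS1 mice (log2 fold change 0.53, standard error 0.05, adjusted p = 0.000229), and Prdx6, a peroxiredoxin, had 165 to 176 CPM in NTG and 250.4 to 315 CPM in APP/PS1 mice (log2 fold change 0.68, standard error 0.07, adjusted p = 0.000413). Ncf1 (1.39, adjusted p = 0.000242) encodes a subunit of the phagocyte NADPH oxidase, which produces superoxide rather than removing it. Of the metallothioneins and iron genes 4 of 13 rose (30.8%), or 7 without mouse 16. Mt1 had 167, 136, 139 and 134 CPM in NTG mice and 219, 244, 210.4, 252 and 219 CPM in APP/PS1 mice (log2 fold change 0.67, standard error 0.08, adjusted p = 0.0011), and Mt2 had 57.7 to 75.1 CPM in NTG and 107 to 143 CPM in APP/PS1 mice (log2 fold change 0.86, standard error 0.11, adjusted p = 0.00149). Slc11a1, a metal transporter of phagosomes, had 2.27 to 3.66 CPM in NTG and 7.78 to 15.7 CPM in APP/PS1 mice (log2 fold change 1.92, standard error 0.22, adjusted p = 0.000696), and Cp, the ferroxidase ceruloplasmin, had 17.1 to 23.6 CPM in NTG and 24.2 to 42.1 CPM in APP/PS1 mice (log2 fold change 0.69, standard error 0.16, adjusted p = 0.0359). Cp was called in 2 of the 9 tests with 1 mouse fewer, those without mouse 16 and without mouse 20, and not with the covariate (adjusted p = 0.0619).

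The mouse genes tied to the transgenes did not separate the groups. App had 1334, 1425, 1392 and 1483 CPM in NTG mice and 1405, 1449, 1452, 1391 and 1504 CPM in APP/PS1 mice (log2 fold change 0.03, standard error 0.05, adjusted p = 0.799). Prnp, whose promoter drives some APP/PS1 transgenes, had 761, 834, 822 and 824 CPM in NTG mice and 697, 798, 783, 740.2 and 831 CPM in APP/PS1 mice (log2 fold change -0.07, standard error 0.06, adjusted p = 0.585). Reads were placed on the mouse genome, and how far transgene reads were counted on these genes is not given in the sources used here, so that the counts are no check of the genotype labels. Of 22 genes of the amyloid precursor and its processing 0 rose and 0 fell (median 0.03, 2 higher and 1 lower at an unadjusted p under 0.05, 1 called by DESeq2), and without mouse 16 2 rose. The smallest p belonged to Adam17, an alpha-secretase (18.3 to 20.2 CPM in NTG and 21.4 to 26 CPM in APP/PS1 mice; log2 fold change 0.25, standard error 0.07, adjusted p = 0.0605).

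Markers of other cells were examined as well, and 6 of 78 tested genes of 11 lists rose (7.69%, against 4.34% of all genes) and 0 fell. Without adjustment 28 were higher (35.9%, against 10.6%) and 0 lower at a p under 0.05. DESeq2 called 18 higher, the test without mouse 16 12 and that with the ribosomal share as a covariate 7, and none was called lower by any of these. Of the red blood cell genes 2 of 5 rose (median 1.06), with a summed level of 82.9 to 152 CPM in NTG and 114 to 477 CPM in APP/PS1 mice, and all 5 highest in mouse 20. Hba-a1 had 25.7, 13.5, 15.6 and 17 CPM in NTG mice and 59, 35.8, 65.8, 47.8 and 98.3 CPM in APP/PS1 mice (log2 fold change 1.77, standard error 0.29, adjusted p = 0.0057), and its near copy Hba-a2 15.9, 10.1, 14.5 and 7.93 CPM in NTG mice and 34.5, 21.1, 38.4, 33.9 and 87.7 CPM in APP/PS1 mice (log2 fold change 1.83, standard error 0.395, adjusted p = 0.0233), a pair between which reads cannot be assigned with certainty. Without NTG mouse 8, 9 or 10, Hba-a2 was not called and 1 gene of the list was. Ighm, the heavy chain of IgM, had 9.94, 11.4, 9.35 and 9.77 CPM in NTG mice and 31.6, 18.5, 25.6, 29.2 and 29.8 CPM in APP/PS1 mice (log2 fold change 1.41, standard error 0.15, adjusted p = 0.000507) and was the only called gene of the 2 tested of 14 B cell and plasma cell markers, both of which were called without mouse 18. T cell markers were scarce apart from Thy1, which is given above as a marker of neurons. Of 20 markers 3 were tested, Trbc2, Lck and Thy1, and none was called (1 higher at an unadjusted p under 0.05, 0 by DESeq2). Cd3e was not tested and had 12, 3, 3 and 0 counts in NTG mice and 18, 22, 34, 14 and 11 counts in APP/PS1 mice. Cd8a, not tested either, had 8, 8, 16 and 14 counts in NTG mice and 22, 101, 36, 35 and 65 counts in APP/PS1 mice. Cd3e, Cd8a and Ly6g are given as defining markers that were too weak to be tested. Of 12 neutrophil markers 1 was tested, Mmp9 (-0.17, adjusted p = 0.622), and Ly6g was at 0 counts in 7 of the 9 mice. Of 6 tested markers of border macrophages none was called (1 at an unadjusted p under 0.05, 1 by DESeq2, 1 without mouse 18), with Cd163 at 2.01 to 2.82 CPM in NTG and 2.39 to 5.9 CPM in APP/PS1 mice (log2 fold change 0.77, adjusted p = 0.117). Brain endothelium had 1 rise in 17, Pecam1 (14.7 to 16.9 CPM in NTG and 18.5 to 22.4 CPM in APP/PS1 mice; log2 fold change 0.395, standard error 0.07, adjusted p = 0.00965), or 3 without mouse 16. Pericytes and smooth muscle had 0 in 11 (8 higher at an unadjusted p under 0.05, 6 by DESeq2), 3 without mouse 16 and 1 without mouse 17. Meningeal fibroblasts had 1 in 12, Bgn (0.61, adjusted p = 0.0482), which was called in 2 of the 9 tests with 1 mouse fewer, those without NTG mouse 8 and without mouse 16. Choroid plexus and ependyma markers gave no call among 6 and 6 genes (0 and 1 higher at an unadjusted p under 0.05) and varied widely among mice of both groups, with a summed choroid plexus level of 33.9 to 1019 CPM in NTG and 35.4 to 1436 CPM in APP/PS1 mice. Of 9 tested cell division genes 1 rose, Top2a (0.602, 0.537, 0.879 and 0.714 CPM in NTG mice and 2.27, 1.13, 1.76, 1.68 and 1.33 CPM in APP/PS1 mice; log2 fold change 1.25, standard error 0.23, adjusted p = 0.00984), or 2 without mouse 16 or mouse 17, and with the ribosomal share as a covariate none was called (adjusted p of Top2a 0.0708), while Mki67 had 1.61, 1.46, 1.63 and 1.52 CPM in NTG mice and 3.42, 1.77, 2.15, 2.73 and 2.31 CPM in APP/PS1 mice (log2 fold change 0.67, adjusted p = 0.0628). The part of the blood and vessel markers in other results was not tested.

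Among the APP/PS1 mice the size of the immune changes differed, and not along 1 scale. The level of a list in a mouse was taken as the mean over tested members of log2 CPM minus the mean of the 4 NTG mice. For plaque-associated microglia the levels were 1.01, 1.51, 1.62, 1.89 and 1.66 in mice 16 to 20, against -0.198 to 0.300 in NTG mice. For reactive astrocytes they were 0.64, 1.33, 1.56, 1.705 and 1.31, against -0.08 to 0.14. In both lists mouse 16 was lowest and mouse 19 highest, and no APP/PS1 mouse reached the NTG range. For interferon-stimulated genes the levels were 0.46, 1.34, 1.61, 1.32 and 1.15, against -0.13 to 0.17. For the GTPases they were 0.34, 0.98, 2.09, 1.15 and 1.31, against -0.16 to 0.26. In these lists, as in MHC class I (1.36 in mouse 18) and class II (1.37), mouse 18 was highest. Homeostatic microglial genes had yet another order, with 0.91 in mouse 20, 0.74 in mouse 19 and 0.44 to 0.54 in the other 3. Over the 712 genes that rose, mouse 16 was the lowest APP/PS1 mouse in 69.4% and mouse 19 the highest in 54.9%. Over the 220 genes that fell, the lowest was mouse 16 in 27.7% and mouse 19 in 12.3%. These orders were read from 1 piece of brain per mouse and carry no test.

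**Figure D4:**
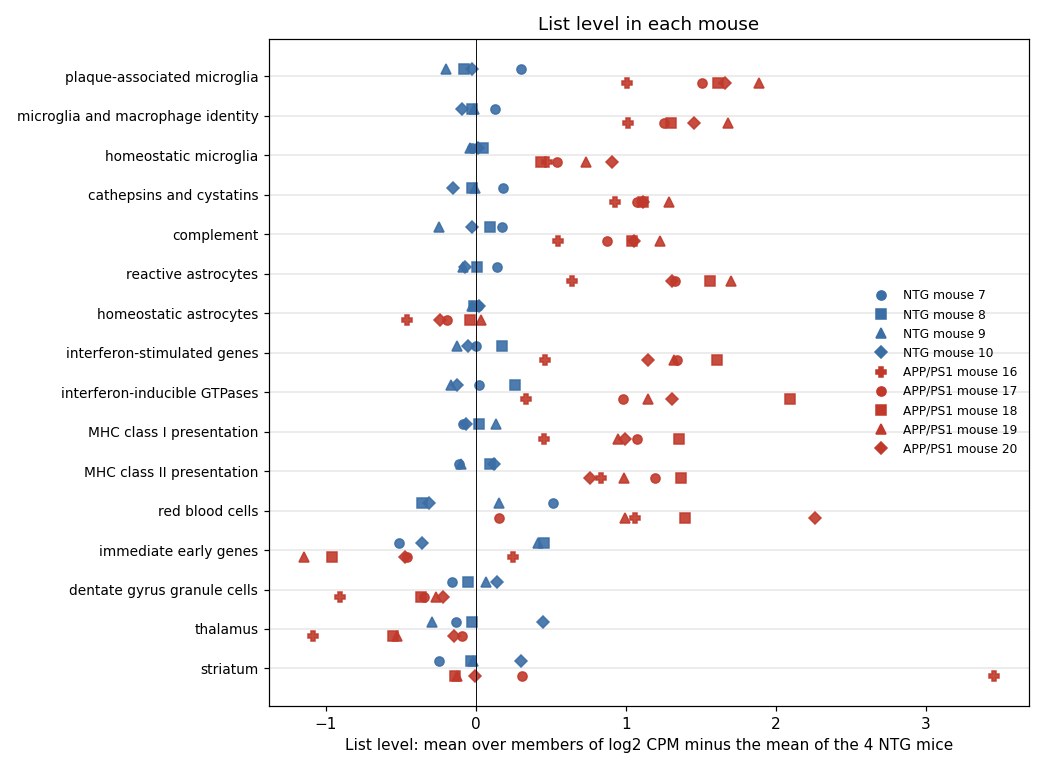
Level of 16 gene lists in each mouse, as the mean over tested members of log2 CPM minus the mean of the 4 NTG mice; blue symbols are NTG and red symbols APP/PS1 mice. Mouse 19 (red triangle) leads the lists of plaque-associated microglia, microglia and macrophage identity, cathepsins, complement and reactive astrocytes and mouse 18 (red square) the interferon and MHC lists, while mouse 16 (red plus) is lowest in most of them and stands at 3.46 in the striatum list.

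The spread within groups was larger in APP/PS1 mice for the genes that rose. The median SD of log2 CPM over the 712 genes that rose was 0.15 in NTG and 0.25 in APP/PS1 mice, and 0.19 in APP/PS1 mice without mouse 16. Over the 220 genes that fell it was 0.10 and 0.12, and over all genes tested 0.11 and 0.13. The CPM of the groups did not overlap in 9.95% of genes tested, with 6.15% higher and 3.81% lower in APP/PS1 mice.

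Rises made up 2.87 to 5.89% and falls 0.195 to 2.87% of the genes tested on each chromosome other than Y. Falls were most frequent on chromosomes 18 (2.87% of 453 genes) and 2 (2.82% of 1348 genes). There were 9 runs of 4 or more neighbouring tested genes called in the same direction, and 15 without mouse 16. Both runs of falls lay on chromosome 2, at chr2:175129493-175980303 (Gm14399, Gm14443, Gm14391, Gm4631, Gm6710, Gm8898 and Gm2026) and chr2:176670522-176927809 (Gm14306, Gm14305, Gm14295, Gm14296 and AL845456.1). All 13 genes tested in this window had negative values and 12 fell (median log2 fold change -0.87). Gm14305 had 7.05, 6.8, 5.21 and 5 CPM in NTG mice and 2.83, 2.71, 2.69, 2.64 and 2.13 CPM in APP/PS1 mice (log2 fold change -1.21, standard error 0.14, adjusted p = 0.000696), below every NTG mouse in every APP/PS1 mouse. This separation was required by the rule that named Gm14305 among the largest falls. These gene models lie in a cluster and partly overlap, so that the 12 genes are not 12 independent measurements. The strain origin of this window in each mouse of the mixed background was not tested. The 7 runs of rises comprised the Sp110, Sp140 and Sp100 genes and the Ugt1a cluster on chromosome 1 (10 genes with shared exons), the genes from Irgm1 and those from Ccl6 to Wfdc17 on chromosome 11, Psmb9, Tap1 and Psmb8 and the H2-Q genes on chromosome 17, and the genes from Gimap1 to Gpnmb on chromosome 6. Within them the largest log2 fold changes beside those given above were 2.31 for Gm11131, 2.15 for H2-Q10 and 2.05 for Wfdc17 (adjusted p = 0.00215, 0.0293 and 0.0132). H2-Q10 was called 5 times when each of the 9 mice was left out in turn and not with the ribosomal share as a covariate (adjusted p = 0.0706).

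Some genes parted the mice into separate levels without regard to genotype. In 20 tested genes the sorted log2 CPM of the 9 mice held a gap of 2 or more with at least 2 mice on each side. In 9 of these the gap lay between the genotypes, as in Cst7, Gm9855, Itgax and Osmr, and in 11 it did not, none of which was called. Gm13394, on chromosome 2, had 0.159, 123, 0.389 and 63.6 CPM in NTG mice and 65.8, 74.3, 64.1, 61.2 and 65 CPM in APP/PS1 mice. Gm7293, on chromosome 9, had 0.193, 23.4, 0.0879 and 11.5 CPM in NTG mice and 12.9, 13.6, 11.7, 11 and 13.3 CPM in APP/PS1 mice. In both genes NTG mice 7 and 9 were near 0, NTG mouse 8 stood at about 2 times the level of the other 6, and the APP/PS1 mice were alike. Gm11478 had 21.3, 1.7, 18 and 1.02 CPM in NTG mice and 1.25, 1.14, 20.1, 21.6 and 16.3 CPM in APP/PS1 mice, with 2 low mice in each genotype. BC049635 had 3.41, 5.34, 8.22 and 3.05 CPM in NTG mice and 0.321, 0.236, 3.49, 3.63 and 4.36 CPM in APP/PS1 mice, low in mice 16 and 17, and Rpl21-ps8 had 6.74, 2.82, 2.46 and 2.38 CPM in NTG mice and 0.241, 3.23, 3.32, 0.189 and 2.53 CPM in APP/PS1 mice, low in mice 16 and 19. Slc6a4, the serotonin transporter, had 1.39, 5.46, 6.68 and 2.43 CPM in NTG mice and 0.195, 0.112, 9.11, 12.7 and 0.111 CPM in APP/PS1 mice, low in mice 16, 17 and 20. Gm2564 had 3.36, 0.179, 0.126 and 0.117 CPM in NTG mice and 4.3, 3.51, 2.2, 3.36 and 2.92 CPM in APP/PS1 mice, where NTG mouse 7 alone of its group resembled the APP/PS1 mice. Ttr, the transthyretin of choroid plexus, had 133, 873, 6.89 and 689 CPM in NTG mice and 4.55, 1256, 321, 24.2 and 388 CPM in APP/PS1 mice, a spread like that of the choroid plexus markers.

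**Figure D5:**
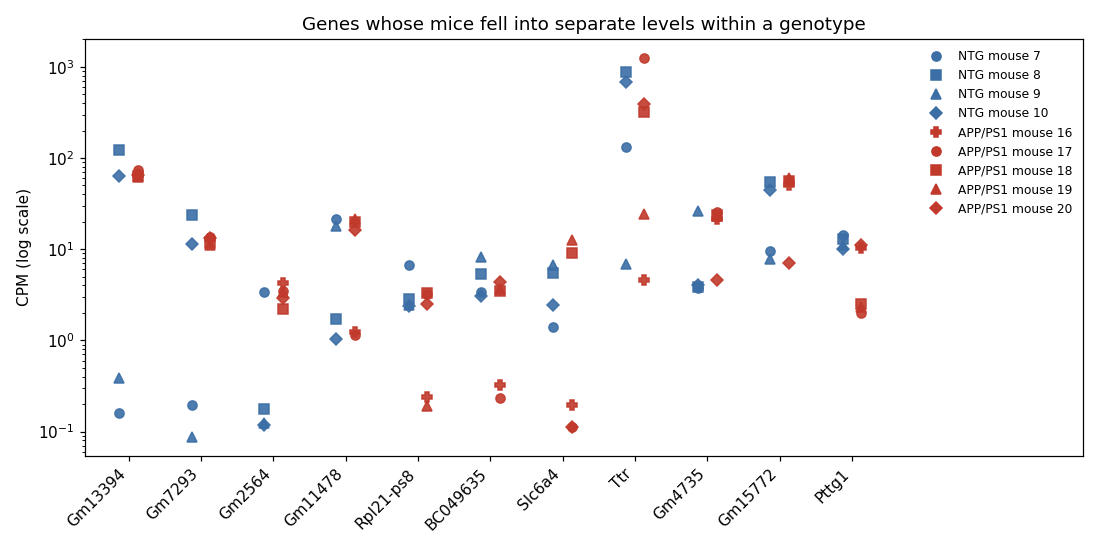
CPM (log scale) in each NTG (blue) and APP/PS1 mouse (red) of the 11 genes whose sorted values hold a gap of 2 or more in log2 CPM that does not part the genotypes. In Gm13394 and Gm7293 NTG mice 7 and 9 lie near 0 and the APP/PS1 mice lie together.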

How the data were processed

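RNA from 1 brain piece per mouse was sequenced in pairs on an Illumina instrument after TruSeq v2 preparation, a kit that does not mark strand. The authors aligned the reads to mm10 with TopHat2 within MAP-RSeq and counted them per Ensembl gene with featureCounts, letting a read count for every gene it overlaps. The deposited values used here are these raw counts, and RPKM as deposited by the authors served only to compare levels between genes. Of 214 named genes, 84 overlap another annotated gene.

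From the counts, genes above 1 CPM in every mouse of at least 1 group were kept (16417). NTG and APP/PS1 mice, grouped by their labels, were compared with edgeR's quasi-likelihood test (edgeR 4.0.16, R 4.3.3) with TMM factors and Benjamini-Hochberg adjustment. CPM and log2 CPM (prior count of 2) used the same factors. The code was tested on simulated data. The alternatives were DESeq2 1.42.0, limma-voom (limma 3.58.1), other factors and filters, the share of counts on Yam1 and AY036118 as a covariate, and each mouse left out. In 16 pairs of replicates no libraries were identical, and nothing in the labels says that mice of a group share a batch. Depth allowed a limit of 0.0447 CPM or lower for a count of 0.

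The gene lists, 53 with 1006 genes (1004 in the file, 886 tested), and the comparison were chosen with earlier results of these data known. Named were the 10 largest rises and falls among called genes without overlap and with a mean of at least 1 CPM, the 4 members of each list with the smallest p, App and Prnp, up to 8 genes each from runs of called neighbours and from genes split across mice, and promoters of 3 interferon-stimulated genes. Promoters came from RefSeq (GRCm38.p6). A few genes that these rules would name are not reported here. Mice that received CP2 were left out, as they are no part of the comparison.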

Additional observations from a re-analysis of the deposited data

Results flagged for a closer look

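Within groups of 4 or 5 mice, 538 sets of values (list levels and named genes) were examined for a single mouse that lay far from the others of its group, and 31 were found. Chance alone gives about 1 in 20 such sets when they are independent. The sets here share genes and mice, so that this rate does not tell what number to expect. A single entry of 1 gene says little. The striatum level of mouse 16 rests on 12 tested genes, and mouse 16 was the highest APP/PS1 mouse in all 12.

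Of the 4 list levels, 3 concerned mouse 16, at 3.46 for the striatum, -0.91 for the dentate gyrus and 0.13 for sodium, calcium and HCN channels, and 1 was brain endothelium in NTG mouse 10 at -0.083. Mouse 16 also stood far from the other APP/PS1 mice in the striatal genes Drd1a (110.5 CPM), Adora2a (115 CPM) and Penk (460.1 CPM), and in Tcf7l2 (5.31 CPM), Gpnmb (6.01 CPM), Grm3 (70.4 CPM) and Gabra5 (35 CPM). NTG mouse 7 stood apart from the other controls in Notch3 (20.6 CPM), Gfap (508 CPM), Cbs (28.8 CPM), Mt1 (167 CPM), Pvalb (193 CPM), Nr3c2 (75.4 CPM), Prnp (761 CPM), Gm2564 (3.36 CPM) and Rpl21-ps8 (6.74 CPM). The other entries were Hcar2 in NTG mouse 9 (0.126 CPM), Myoc (46.2 CPM) and Gbp2 (4.85 CPM) in NTG mouse 8, Rsph1 (6.26 CPM) and Enkur (3.87 CPM) in mouse 17, Prdx6 in mouse 19 (315 CPM), and Hjurp (36.8 CPM), Gm14305 (2.13 CPM), Hba-a2 (87.7 CPM), Gria1 (488 CPM) and Reln (150.1 CPM) in mouse 20.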

How the results depend on the processing

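The main limits are the numbers of mice (4 and 5), 1 piece of brain per mouse, and mouse 16. Leaving out 1 mouse at a time moved the 932 calls between 578 (without NTG mouse 9) and 1474 (without mouse 16), the rises between 469 and 1094 and the falls between 109 and 380. The number of calls also differed by tool, at 1667 with DESeq2 (1098 rises and 569 falls) and 1563 with limma-voom (1108 and 455), and 932 and 926 of the 932 genes were among them. With the ribosomal share as a covariate 646 rises and 74 falls were called, and 624 genes were shared. Genes without overlap between groups numbered 1634, and between 1911 and 2489 (without mouse 16) with 1 mouse fewer. With fewer mice this condition is easier to meet, so that the larger counts by themselves say little. Runs of neighbouring called genes numbered 9, and 15 without mouse 16. Read on the gene's strand alone, GAAANNGAA stood in 25.9% rather than 63.0% of the promoters of interferon-stimulated genes, as fewer positions are searched. Other normalization factors and filters kept each of these counts within 1.5 times.

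Of 3432 values of single named genes under 16 alternatives, 3215 kept their direction and their side of the threshold, 106 were no longer called, 99 became called and 12 changed sign. None of the genes whose sign changed was called. As log2 fold changes they were those of Prlr without NTG mouse 10 (0.074, lowest -0.66 without mouse 17), F5 with limma-voom (0.044) and without NTG mouse 8 (0.028) or 10 (0.0078, lowest -1.35 without mouse 17), Enkur without mouse 17 (-0.037, highest 0.53 without NTG mouse 8), Gm11478 (highest 0.80 without NTG mouse 7) without NTG mouse 8 (-0.16) or 10 (-0.18) and without mouse 18 (-0.07) or 19 (-0.12), and, with the ribosomal share as a covariate, Adora2a (-0.67), Penk (-0.14) and BC049635 (0.19). Beyond the mice and the covariate named, the cause was not tested. No paired analysis was possible because the replicate numbers of the mice are not shared between the groups.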

Other observations

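Some members of the lists that are often used as single markers fell outside the rule for named genes and are given here after their values were seen. Apoe, the main lipid carrier of the brain, had 1848, 1580.1, 1669.7 and 1587 CPM in NTG mice and 1881, 2322, 2403, 2939.5 and 2159 CPM in APP/PS1 mice (log2 fold change 0.49, standard error 0.12, adjusted p = 0.0394), and mouse 16 lay only just above NTG mouse 7. Apoe was called 3 times when each of the 9 mice was left out in turn and not with the ribosomal share as a covariate (adjusted p = 0.066). Vim, a filament of reactive astrocytes, had 39.2, 37.1, 26 and 26.5 CPM in NTG mice and 75.5, 113, 143, 204 and 119 CPM in APP/PS1 mice (log2 fold change 2.02, standard error 0.27, adjusted p = 0.00161). C4b, of the complement cascade, had 136, 86.7, 52.9 and 109.7 CPM in NTG mice and 198, 272, 353, 374 and 299 CPM in APP/PS1 mice (log2 fold change 1.63, standard error 0.27, adjusted p = 0.0057). Among homeostatic microglial genes P2ry12, a purine receptor, had 40.4, 43.1, 38.6 and 38.5 CPM in NTG mice and 51.2, 45.2, 47.5, 51 and 54.3 CPM in APP/PS1 mice (log2 fold change 0.31, standard error 0.06, adjusted p = 0.015) and Cx3cr1, the fractalkine receptor, 42, 41.6, 40.8 and 46.5 CPM in NTG mice and 75.2, 81.2, 83.7, 117 and 102 CPM in APP/PS1 mice (log2 fold change 1.104, standard error 0.12, adjusted p = 0.00071). Spp1, osteopontin, a member of the plaque-associated microglia list, went the other way without being called, with 66, 19.95, 18.4 and 8.92 CPM in NTG mice and 4.31, 10.8, 42.3, 23.3 and 13.6 CPM in APP/PS1 mice (log2 fold change -0.58, standard error 0.67, adjusted p = 0.713). C3 had 8.14, 12, 1.03 and 7.7 CPM in NTG mice and 9.68, 11.9, 42.9, 31.5 and 14.7 CPM in APP/PS1 mice (log2 fold change 1.62, standard error 0.64, adjusted p = 0.202), with NTG mouse 9 far below the other 8 mice. Aqp4, the water channel of astrocyte end feet, had 253, 210.2, 192 and 195 CPM in NTG mice and 142, 272, 407, 412 and 286 CPM in APP/PS1 mice (log2 fold change 0.52, standard error 0.26, adjusted p = 0.339), from the lowest to the highest of all 9 mice within the APP/PS1 group. Among immediate early genes Arc had 50.6, 189.98, 220.2 and 78.8 CPM in NTG mice and 203, 48.7, 35.4, 24.3 and 67.6 CPM in APP/PS1 mice (log2 fold change -0.83, standard error 0.63, adjusted p = 0.548), and Egr1 had 76, 197, 179 and 75.5 CPM in NTG mice and 212, 95, 48.8, 32.4 and 91.8 CPM in APP/PS1 mice (log2 fold change -0.46, standard error 0.52, adjusted p = 0.706). In both, NTG mice 8 and 9 and APP/PS1 mouse 16 stood well above the other 6 mice.

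Markers of blood cells that did not pass the filter for testing lay above the rest in single mice. Cd4 had 29, 32, 25 and 74 counts in NTG mice and 1873, 67, 83, 22 and 40 counts in APP/PS1 mice. Mouse 16 alone was high, while Cd3e had 18 counts in it. Mouse 16 is also the mouse with the striatum list level of 3.46, and the source of its Cd4 counts was not tested. The neutrophil gene S100a8 had 55, 24, 6 and 233 counts in NTG mice and 38, 24, 43, 33 and 16 counts in APP/PS1 mice, and S100a9 had 77, 27, 25 and 293 counts in NTG mice and 24, 32, 84, 53 and 28 counts in APP/PS1 mice, both highest in NTG mouse 10. The antibody genes Igkc (50, 136, 30 and 228 counts in NTG mice and 518, 127, 87, 833 and 56 counts in APP/PS1 mice) and Jchain (59, 71, 29 and 58 counts in NTG mice and 253, 52, 37, 251 and 40 counts in APP/PS1 mice) were highest in mice 16 and 19. These values were chosen after they were seen and carry no test.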
